A study of Homo sapiens with 10 samples.

Results

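The calcitriol response of SKBR3 breast carcinoma cells that had received siRNA against p53 (p53i) was described from 5 of the 10 arrays of the series. SKBR3 is an established breast cancer line with amplified HER2 and a mutant form of p53. The p53i arrays comprised 2 untreated arrays and 1 array each for cells kept 8, 20 or 50 h in 100 nM of D3. The labels use D3 for calcitriol, the active hormone made from vitamin D3. The other 5 arrays had the same layout in cells given siRNA against bacterial LacZ (LacZi), the negative control, and served here for comparison and for the estimate of spread. All groups were grown with charcoal-stripped serum, which lowers steroid hormones in the medium. D3 was given 24 h after transfection by the sample text and 48 h after by the series text, and nothing in the sources used settles which. The members were all arrays whose labels give the p53 knockdown, and no measured value chose them. For the 8 h array the title reads p53Zi, a mix of both siRNA names, so it was placed by its source label, which states the knockdown. Every 8 h value given for p53i cells rests on that label.

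What these groups can show has limits. By their titles the untreated pair are biological replicates. Nothing says whether the 3 D3 arrays came from separate cultures, so the p-values reflect the spread of these samples alone, which may be technical. Untreated cells were not sampled at each D3 time by the labels, so the effects of D3 and of the hours in culture cannot be told apart. The transcript that the siRNA targets was not analysed here, and the knockdown was therefore not checked. The arrays carried the identity of the line: 11 of 12 SKBR3 epithelial markers exceeded a signal of 200 on at least 1 p53i array, CDH1 being the exception. Of the fibroblast, endothelial, leukocyte, hepatocyte, adipocyte and neuronal markers, COL1A1 and FGB alone did so, and none of these markers was called. Summed leukocyte marker signals were 272 to 296 on the untreated and 381 to 416 on the D3 arrays. Hepatocyte sums were also higher with D3 (233 to 264 against 280 to 526), and endothelial sums lower (299 to 350 against 243 to 285). The part of these gaps in the results was not tested. Median signals were 36.6 and 35.7 on the untreated p53i arrays and 40.8, 41.4 and 44.0 at 8, 20 and 50 h with D3. They were thus higher on every D3 array, and counts after centring each array on its median are given below. The small number of arrays limits the precision of every value.

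Calcitriol acts through the vitamin D receptor (VDR), a nuclear receptor that pairs with a retinoid X receptor such as RXRA and binds direct repeats of a short half-site in DNA. Its best known transcriptional target in epithelial cells is CYP24A1, the hydroxylase that inactivates calcitriol and so closes a feedback loop. Other targets move calcium and phosphate across epithelia, and in breast cancer cells calcitriol is known for slowing proliferation.

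CYP24A1 had by far the largest difference. Its signal was 34.5 and 23.7 on the untreated p53i arrays and 4824, 4502 and 4234 after 8, 20 and 50 h. The gene was thus near the background before D3 and at its highest at the earliest time, with no further gain. The difference of the means was 6.66 ± 0.15 on the log2(signal + 16) scale (SE; limma adjusted p = 8.44e-10, 3 D3 against 2 untreated arrays). The receptor itself read lower on its brightest probe set. There VDR was 698 and 811 untreated and 579, 541 and 474 with D3, short of the threshold (limma adjusted p = 0.0871) though lower on all D3 arrays. Its next brightest probe set overlapped between the groups, at 299 and 157 untreated against 232, 166 and 206 with D3. RXRA overlapped between the groups at 810 and 897 against 700, 847 and 961.

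Over all 12022 genes tested, 65 (0.541%) passed a limma adjusted p of 0.05 for the mean of the 3 D3 times. Of these, 47 were higher (0.391%) and 18 lower (0.15%) with D3. For every one of the 65 the 3 D3 arrays lay on one side of both untreated arrays, an arrangement that 28.6% of all genes had. Without adjustment, 806 genes (6.7%) were higher and 1013 (8.43%) lower at p under 0.05. At single times, 1 gene passed at 8 h and 1 at 20 h (0.00832% each), CYP24A1 both times, and 3 at 50 h (0.025%), CYP24A1, SLC26A2 and TM7SF2. A difference of 1 on the log2 scale was reached by 20 of the 47 and 3 of the 18 genes, whereas the untreated duplicates differed by that much for 430 of 12022 genes (3.58%).

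The number of calls depended on single arrays and on the scaling. Every array left out moved the count by more than 1.5 times: to 28, 27, 14, 13 and 6 without LacZi untreated 1, untreated 2, 8 h, 20 h and 50 h, and to 303, 158, 32, 3 and 3 without the matching p53i arrays. Without the p53i 20 h array CYP24A1, OPN3 and TM7SF2 were called, and without the p53i 50 h array CYP24A1, OPN3 and SOCS3. Only CYP24A1 and OPN3 were called in all 10 of these fits. All 65 genes kept their sign in them, an outcome largely fixed by their D3 arrays lying on one side of both untreated arrays. Fitted on the p53i arrays alone, 5 genes passed: CYP24A1, OPN3, SOCS3, DLX1 and KAZN, the last pair named after its values were seen. All 65 then had an unadjusted p under 0.05, as did 1369 of all 12022 genes. The same arrays had chosen the 65, so this is no independent support. Centring each array on its median gave 46 higher and 211 lower calls in place of 47 and 18, with the median of all genes moved to -0.18. Each gene was read on its brightest probe set. Of the 65 genes, 36 had other probe sets past the filter on low signals; these all had the same sign for 28 genes, and at least 1 had the opposite sign for 8.

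**Figure D1:**
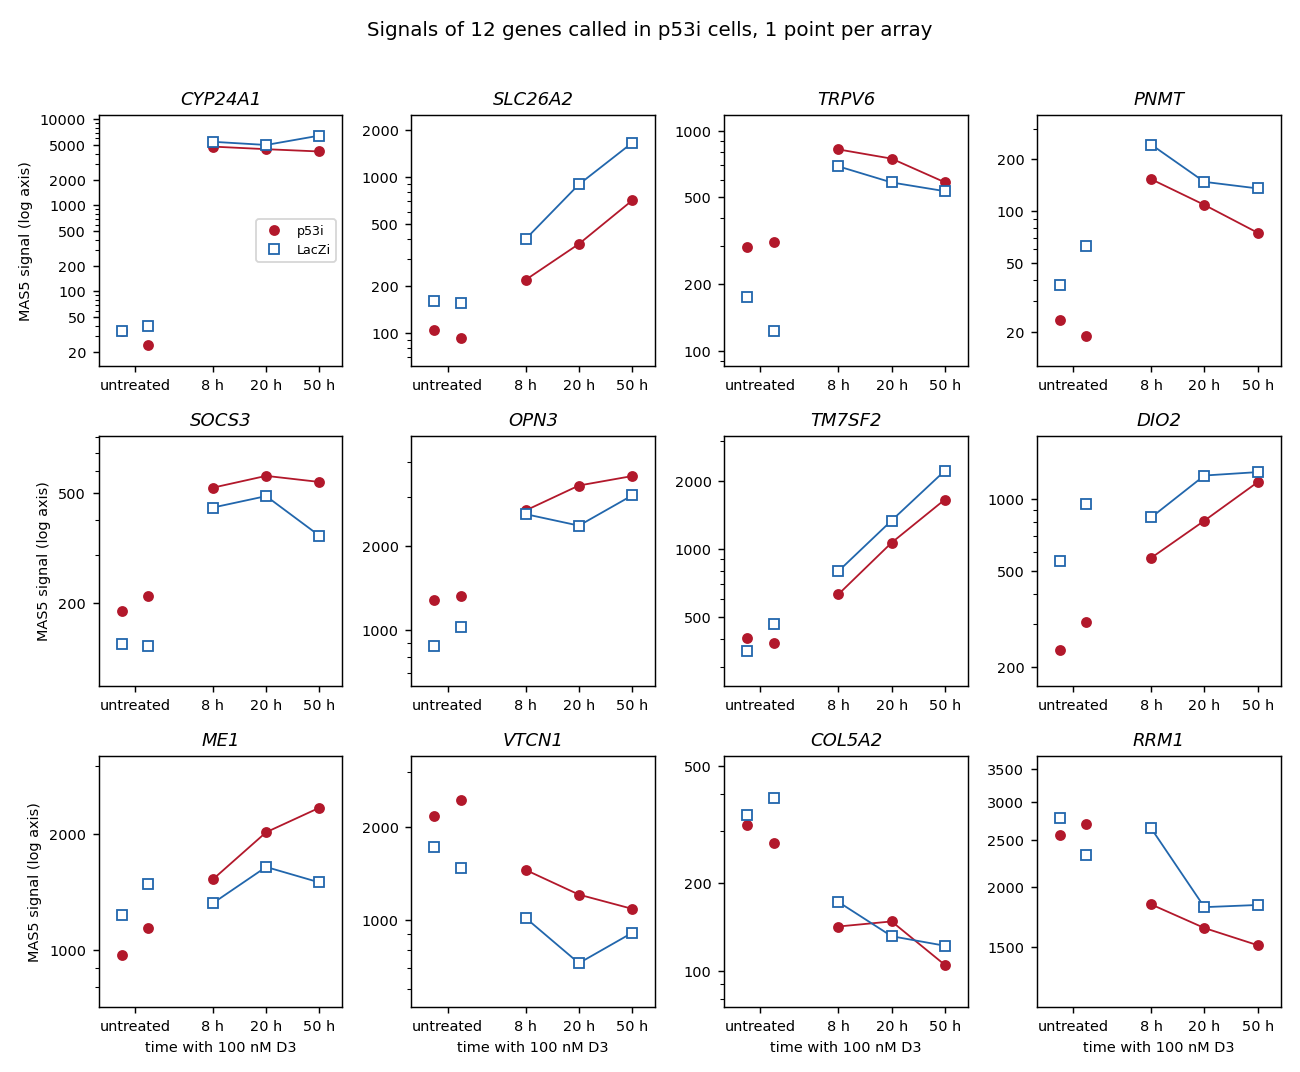
MAS5 signals (log axes, a different range in each panel) of 12 genes called with D3 in p53i cells. Filled circles are the 5 p53i arrays and open squares the 5 LacZi arrays, 1 point per array, with lines joining the D3 times. In each panel the 3 p53i D3 arrays lie on one side of both untreated p53i arrays.

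The sulfate transporter SLC26A2 and the calcium channels TRPV6 and ITPR1 rose. SLC26A2 read 104 and 93.2 untreated and 220, 374 and 710 with D3, a stepwise gain over the time course. Its mean difference was 1.82 ± 0.15 (SE; limma adjusted p = 0.000681), the second largest among the called genes. TRPV6, the apical calcium entry channel of absorptive epithelia, read 296 and 313 untreated and 825, 749 and 584 with D3, highest at the first time. ITPR1, the inositol trisphosphate receptor that releases calcium from the endoplasmic reticulum, read 134 and 179 untreated and 332, 335 and 407 with D3. These were the 3 called (0.391% of all genes were called higher) among 24 tested genes of calcium, phosphate and sulfate transport, whose median difference was 0.13 against -0.03 for all genes. The calcium pump ATP2A2 was measured at 5143 and 5282 untreated and 5812, 6142 and 6843 with D3 (limma adjusted p = 0.198).

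Vitamin D receptor targets as a list stood mostly above the untreated level. Of 45 listed genes 30 were tested, and 4 were called, all higher: CYP24A1, SLC26A2, TRPV6 and STEAP4. Of all genes, 0.391% were called higher. The 3 D3 arrays exceeded both untreated arrays for 17 of the 30, against 12.4% of all genes, and lay below both for none, against 16.1%. From 8 to 20 to 50 h the list median was 0.34, 0.60 and 0.73, where the medians of all genes were -0.02, -0.01 and -0.02. LacZi arrays gave list medians of 0.51, 0.59 and 0.88. The filter took the mean over all arrays, so the 30 are not the whole list: members dim on most arrays were removed, while CYP24A1, KLK6 and THBD, below the filter without D3, were kept through their D3 signals and had to be higher. Among the 27 members that passed it untreated, 14 lay above both untreated arrays, against 11.3% of all such genes. All gene lists used here were chosen with earlier results of these data known, so counts over this and the other lists are a description.

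Members short of the threshold included several at low signals. KLK6, a kallikrein protease, read 13.3 and 25.05 untreated and 74.6, 77.8 and 116 with D3 (limma adjusted p = 0.0786). SERPINB1, a protease inhibitor, read 76.4 and 37.4 untreated and 148, 190 and 152 with D3. THBD, thrombomodulin, stayed at 20.0 on both untreated arrays and between 55.8 and 56.6 on the D3 arrays. Groups of all 3 genes were apart, but such signals lie near the array background. CDKN1A, the CDK inhibitor often named as a calcitriol target, overlapped between the groups. It read 151 and 241 untreated and 131, 305 and 346 with D3 (limma adjusted p = 0.599). The growth-factor binding protein gene IGFBP5 read 921 and 1022 untreated and 1492, 1460 and 1192 with D3 (limma adjusted p = 0.065).

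**Figure D2:**
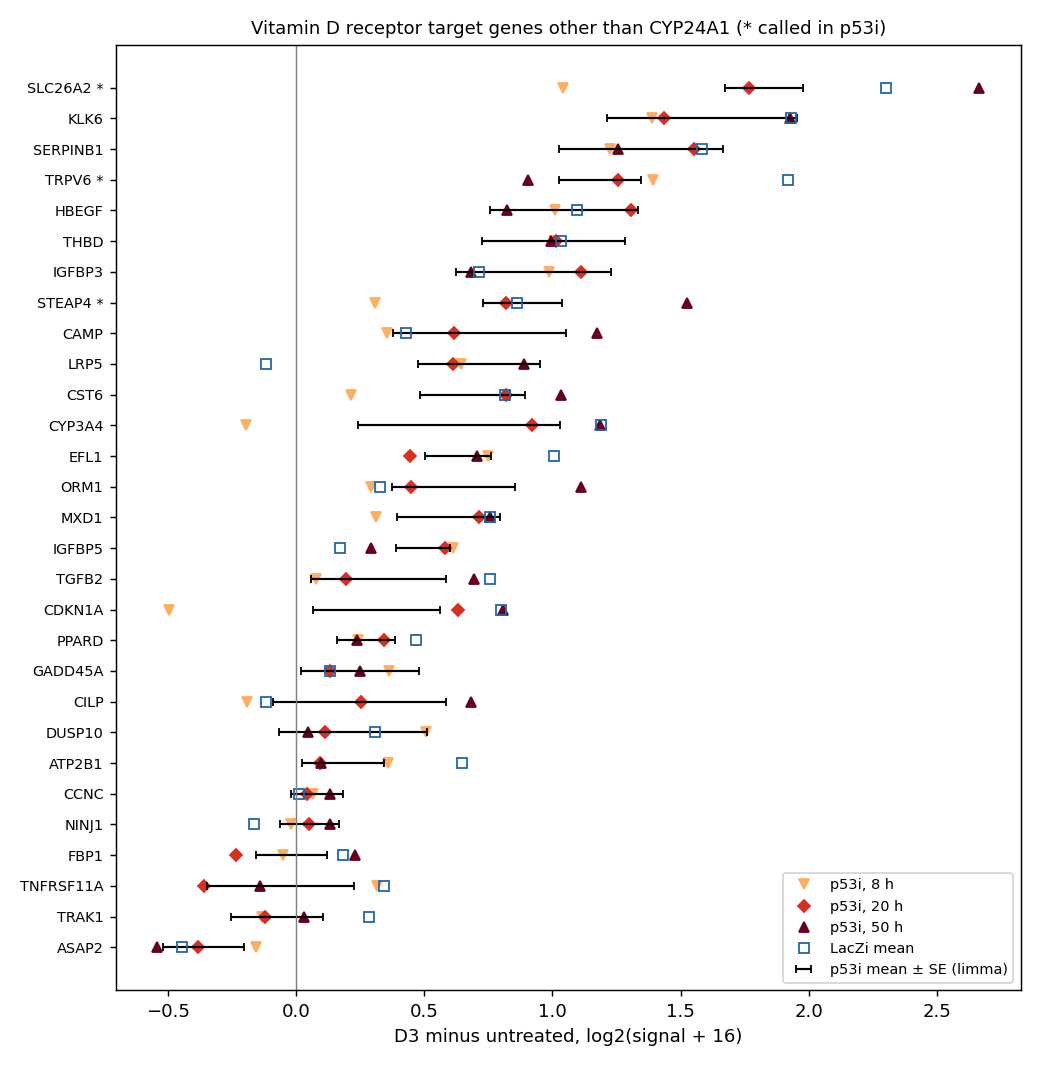
Differences between D3 and untreated arrays, log2(signal + 16), for the 29 tested vitamin D receptor target genes other than CYP24A1. Triangles and diamonds give the single p53i arrays at 8, 20 and 50 h against the mean of the 2 untreated arrays, bars the p53i mean ± SE from limma, squares the LacZi mean, and an asterisk a call in p53i cells. Most points lie to the right of 0, and SLC26A2 reaches 2.66 at 50 h.

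STEAP4, a metalloreductase, and NFKBIA, the inhibitor that holds NF-kB in the cytoplasm, were called higher and had a candidate receptor motif just upstream. STEAP4 read 504 and 350 untreated and 524, 753 and 1239 with D3, so that its 8 h array was barely above the higher untreated one. NFKBIA read 3518 and 3392 untreated and 4649, 6514 and 7655 with D3 (mean difference 0.83 ± 0.13, SE; limma adjusted p = 0.0268). The 250 bases before the RefSeq start of each gene (GRCh38.p14) were searched on both strands for the DR3 motif, the receptor's direct repeat, with at most 2 mismatches in 12 fixed positions. A match was present in 3 of the 39 called-higher genes with a promoter entry (7.69%) and in 3 of the 15 called lower (20%). The share was 11.2% among the genes tested and 14.4% among all promoters, so the match was not particular to the rises. The windows of STEAP4 (chr7:88306895-88307144, minus strand) and NFKBIA (chr14:35404750-35404999, minus strand) are shown 5′ to 3′ because they hold the match, in capitals, in called genes with a known role. In NFKBIA the second capital run is a kB motif, GGGAA and TTCC with 1 base between them on either strand, which 0.403% of all promoters held. Each DR3 match had 2 mismatches, and a match of letters is not a measured binding site.
STEAP4: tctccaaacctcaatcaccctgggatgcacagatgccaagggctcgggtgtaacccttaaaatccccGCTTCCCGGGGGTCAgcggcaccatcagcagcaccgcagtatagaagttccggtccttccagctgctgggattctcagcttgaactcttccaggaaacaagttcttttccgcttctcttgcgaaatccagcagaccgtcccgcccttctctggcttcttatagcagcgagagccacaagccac
NFKBIA: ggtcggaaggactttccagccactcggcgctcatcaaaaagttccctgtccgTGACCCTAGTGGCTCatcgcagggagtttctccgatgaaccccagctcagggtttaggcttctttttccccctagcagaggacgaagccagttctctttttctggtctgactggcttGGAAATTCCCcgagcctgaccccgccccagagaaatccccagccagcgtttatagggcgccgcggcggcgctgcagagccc

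Among the 15 largest rises of called genes, several others belonged to signalling. SOCS3, the feedback inhibitor of cytokine receptors, read 187 and 212 untreated and 524, 578 and 550 with D3, at its level by 8 h. Its mean difference was 1.39 ± 0.15 (SE; limma adjusted p = 0.00423), but another SOCS3 probe set read 62.6 and 63.7 against 52.4, 111 and 51.8 without separating the groups. OPN3, an opsin, read 1276 and 1323 untreated and 2682, 3296 and 3565 with D3. Its mean difference was 1.27 ± 0.12 (SE; limma adjusted p = 0.0015), and both its probe sets were higher on all D3 arrays. PDGFD, a platelet-derived growth factor, read 310 and 178 untreated and 453, 657 and 1055 with D3. STK17B, a kinase of the death-associated family, read 98.4 and 96.7 untreated and 267, 349 and 268 with D3. ARHGEF28, a guanine nucleotide exchange factor, read 89.1 and 113 untreated and 281, 324 and 199 with D3. SOCS3 and STK17B were highest at 20 h and PDGFD and OPN3 at 50 h, with 1 array at each time and no test of these orders.

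Enzymes and transporters made up a second set of large rises. PNMT, which turns noradrenaline into adrenaline and lies in the HER2 amplicon, read 23.5 and 18.8 untreated and 153, 109 and 75.0 with D3, declining after 8 h. No other of the 13 tested amplicon genes was called, and ERBB2 itself overlapped at 13765 and 16178 against 14724, 13948 and 19099. For this and the list counts that follow, the share of all genes called higher was 0.391%. TM7SF2, a sterol reductase of cholesterol synthesis, read 405 and 386 untreated and 631, 1068 and 1656 with D3 (mean difference 1.36 ± 0.13, SE; limma adjusted p = 0.00177). It was the only call among 17 tested genes of mevalonate and cholesterol synthesis. DHCR7, which catalyses the last step of that synthesis, read 1286 and 1968 untreated and 1770, 2523 and 2362 with D3, with overlap. DIO2, the deiodinase that activates thyroid hormone, read 235 and 307 untreated and 568, 811 and 1173 with D3. SLC1A3, a glutamate transporter, read 35.7 and 21.7 untreated and 60.8, 77.1 and 159 with D3. ME1, the cytosolic malic enzyme that supplies NADPH, read 968 and 1137 untreated and 1523, 2017 and 2334 with D3, and was the only call among 21 genes of fatty acid synthesis and storage. A second ME1 probe set was flat, at 588 and 457 untreated and 503, 461 and 495 with D3.

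The remaining of these 15 rises were DNAH17, SH3TC1, TENT5A and DBNDD1. DNAH17, an axonemal dynein chain, read 70.3 and 54.5 untreated and 122, 241 and 335 with D3. SH3TC1 read 33.6 and 48.9 untreated and 114, 154 and 141 with D3. TENT5A, a poly(A) polymerase, had untreated arrays far apart, at 553 and 1085, below 1465, 2005 and 2451 with D3. DBNDD1 read 153 and 79.8 untreated and 274, 323 and 295 with D3. Of the 47 genes called higher, 32 were highest at 50 h, 10 at 20 h and 5 at 8 h. For 29 of them the signal gained at each step from 8 to 20 to 50 h, a pattern that 21.4% of all genes showed. Since the D3 arrays also chose these genes, the shares are a description.

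Among called genes, immediate early and ERK feedback genes included 2 rises of 31 tested, where 0.391% of all genes were called higher. ETS2, a transcription factor downstream of ERK, read 408 and 436 untreated and 750, 701 and 784 with D3. FOS, a subunit of AP-1, read 2213 and 1936 untreated and 3400, 2895 and 3382 with D3. The list median was 0.14, against -0.03 for all genes. NFKBIA was the only call among 15 tested NF-kB and inflammatory genes, whose medians at the 3 times were -0.07, 0.16 and 0.69, with RELB at 84.2 and 25.5 untreated and 59.8, 78.0 and 125 with D3.

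The 18 falls had a median of -0.78, against 0.88 for the 47 rises. CLTCL1, a clathrin heavy chain, had the largest at -1.41 ± 0.25 (SE; limma adjusted p = 0.0415), from 135 and 151 untreated to 104, 15.7 and 40.5 with D3. RFTN1, a lipid raft protein, went from 332 and 275 untreated to 202, 158 and 61.2, a stepwise loss. COL5A2, a fibrillar collagen chain, went from 316 and 273 untreated to 142, 147 and 105, and its other probe set was also lower on all D3 arrays. TBL1X, a subunit of the nuclear receptor corepressor complex, went from 401 and 409 to 183, 188 and 233. VTCN1, an inhibitory ligand of T cells, went from 2170 and 2445 to 1452, 1209 and 1088 (mean difference -0.88 ± 0.13, SE; limma adjusted p = 0.0248). For 6 of the 18 the signal was lower at each step from 8 to 20 to 50 h, against 21.9% of all genes.

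The other named falls reached from -0.87 to -0.66 on the log2 scale. Metabolic genes among them were AKR7A2, an aldehyde reductase, CHKA, the choline kinase of phosphatidylcholine synthesis, and ECI2, an isomerase of fatty acid oxidation. ECI2 read 619 and 621 untreated and 473, 381 and 296 with D3. CHKA read 1551 and 1249 untreated and 809, 853 and 780 with D3. PCP4, a calmodulin-binding protein, read 1069 and 949 untreated and 750, 517 and 433 with D3. BASP1, a membrane-bound signalling protein, read 1119 and 1187 untreated and 570, 715 and 843 with D3, lowest at the first time. A dim second BASP1 probe set was higher with D3, at 6.66 and 10.7 against 37.1, 18.9 and 50.6. FARP1, ZNRF1, LITAF, ELL3 and the small GTPase RAP1B completed the 15.

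Cell division genes were lower at the later times, with little support gene by gene. RRM1, the large subunit of ribonucleotide reductase, which makes the building blocks of DNA, was the only one called, where 0.15% of all genes were called lower. It read 2562 and 2693 untreated and 1840, 1645 and 1515 with D3 (mean difference -0.66 ± 0.12, SE; limma adjusted p = 0.0415). A dimmer RRM1 probe set overlapped, at 286 and 127 against 205, 145 and 185. None of the 42 tested G2/M and mitosis genes was called by limma, but 31 of them were lower at an unadjusted p under 0.05, against 8.43% of all genes. Their median difference at 8, 20 and 50 h was -0.17, -0.42 and -0.74. At 50 h all 42 lay below the untreated mean, as did 52.2% of all genes, and 37 declined at each step, as did 21.9%. For the 38 tested G1/S and DNA replication genes the medians were -0.08, -0.24 and -0.37, and 14 were lower at an unadjusted p under 0.05. LacZi arrays gave medians of -0.15, -0.47 and -0.58 for the G2/M list, and -0.22, -0.46 and -0.40 for the G1/S list. On them 34 of the 42 G2/M genes declined at each step, as did 2444 of all 12022 genes. In bulk RNA, fewer dividing cells and less of a transcript per cell cannot be told apart.

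Among the mitotic genes, DLGAP5, a spindle protein, read 581 and 499 untreated and 450, 299 and 203 with D3 (limma adjusted p = 0.0546). KIF2C, a kinesin that depolymerises microtubules, read 1905 and 1613 untreated and 1307, 1244 and 974 with D3. BIRC5, survivin, read 1274 and 1092 untreated and 910, 799 and 675 with D3. CKS1B, a subunit of cyclin-dependent kinases, read 2155 and 1678 untreated and 1413, 1278 and 1141 with D3. In these 4 genes the signal declined at each step and the groups did not overlap. CCNB2, a B-type cyclin, read 1424 and 1129 untreated and 1079, 848 and 749 with D3.

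The untreated duplicates were themselves apart in these genes: the median of untreated 2 minus untreated 1 over the G2/M list was -0.34, against 0.02 for all genes. Set against untreated 2 alone, the G2/M medians were -0.06, -0.28 and -0.55, and against untreated 1 alone -0.35, -0.59 and -0.90. The ACTB 3′/5′ ratio, which increases where RNA is degraded or labelling is short, was 4.39 and 8.72 on untreated 1 and 2, and 4.77, 7.11 and 6.12 on the D3 arrays. The D3 mean of 6.00 ± 1.17 (SD, n = 3) and the untreated mean of 6.55 ± 3.06 (SD, n = 2) gave p = 0.9 in a two-sided exact permutation test, which cannot go below 0.1 here. The part of these gaps in the result was not tested.

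Promoters of the cell division genes were searched for motifs known from such genes. The CHR motif (TTTGAA, either strand) was present in the 250 upstream bases of 20 of the 36 G2/M genes with a promoter entry (55.6%), against 13.6% of all promoters. The CCAAT motif was present in 28 of 36 (77.8%), against 33% of all promoters, and both together in 18 of 36, against 4.85%. An E2F motif, TTTCCCGC, was present in 9 of 33 G1/S genes (27.3%), against 1.42% of all promoters. These shares describe genes listed for their role in division, whatever their response to D3. A match of letters is not a measured binding site. The windows of CCNB2 (chr15:59104896-59105145, plus strand) and DLGAP5 (chr14:55191586-55191835, minus strand) are shown because they hold both motifs, in capitals, in genes that declined at each step. No motif overlaps another in them, and TTCAAA marks a match on the other strand.
CCNB2: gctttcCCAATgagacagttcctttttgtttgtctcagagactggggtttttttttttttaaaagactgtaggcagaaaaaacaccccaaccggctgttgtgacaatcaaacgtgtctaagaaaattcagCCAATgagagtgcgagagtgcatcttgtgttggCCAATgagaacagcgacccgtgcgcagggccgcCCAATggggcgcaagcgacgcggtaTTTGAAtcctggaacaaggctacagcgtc
DLGAP5: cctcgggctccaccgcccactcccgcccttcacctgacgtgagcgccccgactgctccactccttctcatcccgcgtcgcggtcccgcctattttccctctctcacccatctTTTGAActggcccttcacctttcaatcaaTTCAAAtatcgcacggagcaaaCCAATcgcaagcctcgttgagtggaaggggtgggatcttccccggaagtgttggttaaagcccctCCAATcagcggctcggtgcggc

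Interferon-stimulated genes lay mostly below the untreated level at 8 h and mostly above it at 50 h. Over 33 tested genes the list medians at 8, 20 and 50 h were -0.60, -0.08 and 0.49, so that the mean of the 3 times was near 0 and no gene was called by limma. At 8 h 28 of the 33 lay below the untreated mean, as did 53.4% of all genes, and at 50 h 28 of the 33 lay above it, as did 47.8%. The signal gained at each step for 25 of the 33, against 21.4% of all genes. For the mean of the 3 times, 2 members were higher and 1 lower at an unadjusted p under 0.05. Of all genes, 6.7% were higher and 8.43% lower by that measure. Each time rests on 1 array, and no test of the time course is given.

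ISG15, a ubiquitin-like modifier, read 1486 and 3030 untreated and 1085, 2234 and 4183 with D3. IFIT1, an RNA-binding antiviral protein, read 154 and 277 untreated and 121, 357 and 648. OAS3, a sensor of double-stranded RNA, read 314 and 257 untreated and 153, 295 and 531. IFI27 read 665 and 1451 untreated and 270, 1060 and 1704. All 4 were lowest at 8 h and highest at 50 h, and the untreated arrays of ISG15, IFIT1 and IFI27 were themselves far apart. TAP1, the peptide transporter of antigen presentation, differed from these, at 435 and 401 untreated and 206, 234 and 284 with D3. Against untreated 1 alone the list median was -0.45 at 8 h and 0.56 at 50 h, and against untreated 2 alone -0.69 and 0.39. On the LacZi arrays the list medians were -0.27, -0.12 and -0.02, and 9 of 33 genes gained at each step.

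The interferon response element (ISRE), searched as 2 copies of GAAA with 2 bases between them on either strand, was present upstream of 16 of the 27 interferon-stimulated genes with a promoter entry (59.3%), against 3.07% of all promoters. The windows of IFIT1 (chr10:89392373-89392622, plus strand) and ISG15 (chr1:1013247-1013496, plus strand) are shown as genes that went from lowest at 8 h to highest at 50 h. Capitals mark the element, which matched on the other strand in IFIT1 and as overlapping copies in ISG15. The share describes genes listed for their response to interferon, whatever their response to D3, and a match is not a measured binding site.
IFIT1: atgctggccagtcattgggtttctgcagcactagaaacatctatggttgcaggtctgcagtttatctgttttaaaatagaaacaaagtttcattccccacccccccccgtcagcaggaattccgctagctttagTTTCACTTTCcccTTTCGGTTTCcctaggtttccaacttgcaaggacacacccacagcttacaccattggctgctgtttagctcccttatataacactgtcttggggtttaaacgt
ISG15: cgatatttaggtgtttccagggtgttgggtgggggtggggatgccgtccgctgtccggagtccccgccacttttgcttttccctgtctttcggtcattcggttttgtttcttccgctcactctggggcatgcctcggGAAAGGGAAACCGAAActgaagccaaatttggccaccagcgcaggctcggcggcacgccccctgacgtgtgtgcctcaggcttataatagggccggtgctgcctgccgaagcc

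**Figure D3:**
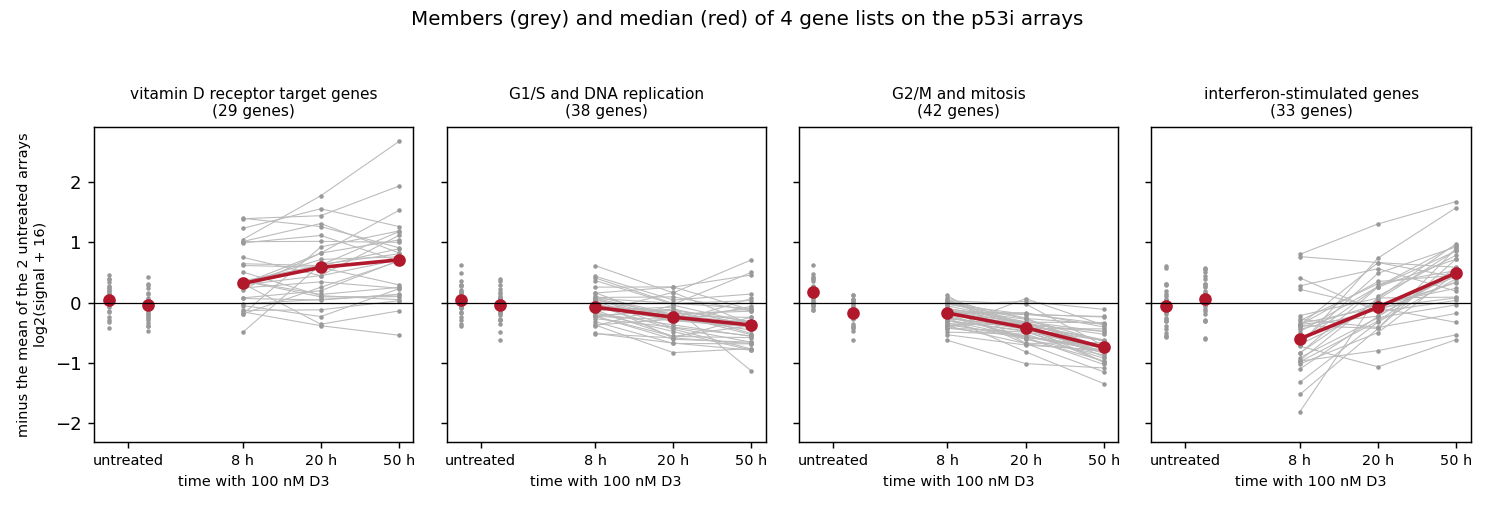
Differences from the mean of the 2 untreated p53i arrays, log2(signal + 16), for 4 gene lists. Grey points and lines are single genes, red points the list median, with untreated 1 and 2 on the left and 1 array at each D3 time; CYP24A1 is left out of the first panel. The G2/M median reaches -0.74 at 50 h, and the interferon-stimulated median goes from -0.60 at 8 h to 0.49 at 50 h.

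Several other lists gave no calls in p53i cells by limma. For keratins, kallikreins and epidermal differentiation, 5 of 21 genes were higher and 2 lower at an unadjusted p under 0.05 (6.7% and 8.43% of all genes), with S100A7, a psoriasin, at 385 and 764 untreated and 627, 1129 and 2249 with D3. KRT5, a basal keratin, was near background untreated, at 2.87 and 2.40, and read 28.6, 37.3 and 92.0 with D3. It passed the filter through other arrays than the untreated p53i ones. The brighter keratin gene KRT15 lay on the other side, at 471 and 421 untreated and 277, 193 and 198 with D3. Of 23 luminal breast genes, 2 were higher and 5 lower at an unadjusted p under 0.05. The luminal transcription factor FOXA1 read 1215 and 1050 untreated and 1809, 1779 and 1644 with D3, and 471 and 549 against 590, 467 and 504 on its other probe set. EHF, an epithelial ETS factor, read 1740 and 1078 untreated and 882, 636 and 646. Of 27 wild-type p53 target genes, 1 was higher and 4 lower at an unadjusted p under 0.05. In the same list SESN2, a stress-induced sestrin, read 138 and 192 untreated and 243, 231 and 439 with D3. Its other probe set overlapped, at 193 and 134 untreated against 148, 145 and 165 with D3. DDB2, a DNA damage sensor, read 169 and 136 untreated and 70.1, 60.0 and 49.4 with D3.

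Lists of apoptosis regulators, redox genes and growth-factor signalling were mixed. Of 29 apoptosis regulators, 2 were higher and 6 lower at an unadjusted p under 0.05. For this and the counts that follow, the shares of all genes were 6.7% higher and 8.43% lower. XIAP, an inhibitor of caspases, read 923 and 831 untreated and 1011, 1475 and 1519 with D3, but its next brightest probe set read 779 and 502 against 608, 464 and 527. BCL2L1, an anti-apoptotic BCL2 relative, read 513 and 498 untreated and 323, 372 and 431. Of 23 NRF2 and thioredoxin redox genes, 3 were higher and 3 lower. HMOX1, heme oxygenase, read 181 and 130 untreated and 302, 326 and 419 with D3 (limma adjusted p = 0.0605). SLC7A11, the cystine transporter, read 344 and 146 untreated and 132, 114 and 76.2. Of 22 genes of the IGF and TGF-beta axis 3 were higher and 3 lower. Of 28 glycolysis and hypoxia genes 2 were higher and 5 lower, and of 21 CDK inhibitors, D cyclins and MYC network genes 4 and 1. Of 13 junction and cadherin genes 2 were higher and 2 lower.

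Whether the siRNA altered the D3 response was asked by the interaction, the response in p53i cells minus that in LacZi cells. No gene passed a limma adjusted p of 0.05, and the smallest was 0.749. Without adjustment 645 genes (5.37%) had a p under 0.05. A single array decided this count: without p53i untreated 1, 62 genes passed, 59 of them with the higher response in p53i cells. LacZi cells by themselves gave 47 calls with D3 (0.391%), 41 higher (0.341%) and 6 lower (0.0499%). Across all 12022 genes the responses with the 2 siRNAs, which share no array, correlated at Pearson r = 0.379 and a Spearman rank correlation of 0.337, over genes that are not independent replicates.

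The genes called in p53i cells mostly went the same way in LacZi cells. Of the 47 called higher, 43 had the same sign with LacZi, 35 had all LacZi D3 arrays above both LacZi untreated arrays (16.4% of all genes), and 21 were called there. All 18 genes called lower had the same sign, 12 had all LacZi D3 arrays below (15.4% of all genes), and 6 were called. The median of the 47 was 0.88 in p53i and 0.58 in LacZi cells, but these genes were chosen on their p53i values, which favours the p53i side. Chosen on LacZi values instead, the 41 higher genes had a median of 1.14 in LacZi and 0.83 in p53i cells, and 40 of them kept their sign.

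CYP24A1 was the clearest shared response, at 34.9 and 40.0 untreated and 5489, 5039 and 6476 with D3 in LacZi cells, a mean difference of 6.73 against 6.66 in p53i cells. The limma interaction was -0.07 ± 0.21 (SE) with an adjusted p of 0.978. TRPV6 and ITPR1 started higher in p53i cells. TRPV6 was 176 and 122 in untreated LacZi cells and 691, 583 and 532 with D3, a response of 1.92 against 1.19 in p53i cells. ITPR1 was 71.4 and 62.8 in untreated LacZi cells and 319, 342 and 310 with D3, a response of 2.03 against 1.13. SLC26A2 was 161 and 157 in untreated LacZi cells and 402, 900 and 1664 with D3, above the p53i array at every time. The unadjusted p of the interaction was 0.00768 for TRPV6, 0.00495 for ITPR1 and 0.0486 for SLC26A2, and the adjusted p was 0.893 for each.

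ME1 and TPR had the opposite arrangement. ME1 was 1232 and 1482 in untreated LacZi cells and 1321, 1639 and 1495 with D3, where its response was 0.13 against 0.87 in p53i cells. TPR, a protein of the nuclear pore basket, was 2433 and 2292 in untreated LacZi cells and 1994, 2317 and 2346 with D3, against 1771 and 1775 untreated and 2283, 2921 and 3625 with D3 in p53i cells. Both started lower in p53i cells and were higher there at 20 and 50 h. Each of these contrasts rests on 1 probe set, since the next brightest differed in p53i cells by -0.09 for ME1 and 0.09 for TPR. Their unadjusted interaction p was 0.00246 and 0.000357, with adjusted p of 0.893 and 0.749.

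**Figure D4:**
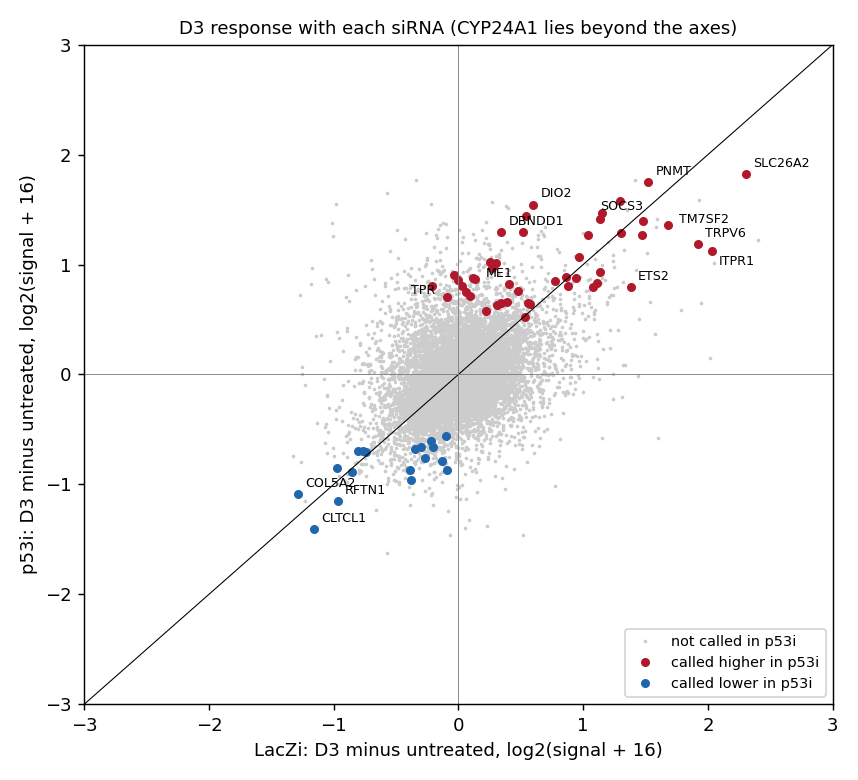
Response to D3, the mean of 3 D3 arrays minus the mean of 2 untreated arrays in log2(signal + 16), in p53i cells (vertical) against LacZi cells (horizontal) for all genes tested but CYP24A1, which lies beyond the axes. Red and blue points are the 47 genes called higher and the 18 called lower in p53i cells, grey points all others, and the diagonal marks equal responses. Nearly all red points lie right of 0 and all blue points left of it, with TRPV6 and ITPR1 under the diagonal and ME1 and TPR above it.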

How the data were processed

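The deposited table gave 1 intensity on a linear scale for each of 54675 probe sets on 10 one-colour Affymetrix arrays. They are MAS5 signals per the submitters' processing notes; which version was used, the sources used here do not say. The authors had scaled each array, since the mean without the lowest and highest 2% of values was 200.03 on all of them. No further normalization was applied, and the number of arrays, not a read depth, limits precision. Samples were grouped by their labels.

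The platform annotation named the probe sets: 41097 carried 1 symbol and were used, 1801 several and 11777 none. Signals were converted to log2(signal + 16), which understates changes of dim genes. The upper 50% of probe sets by mean were kept (signal above 35.4), with the brightest probe set for each of 12022 genes. limma 3.58.1 in R 4.3.3 (lmFit, eBayes with an intensity trend, two-sided, Benjamini-Hochberg over all genes, threshold 0.05) was fitted to all 10 arrays with terms for siRNA, D3 time and siRNA by D3 (4 residual degrees of freedom). The D3 estimate is the mean of 3 minus the mean of 2 p53i arrays, and LacZi arrays add only to the spread. Single times came from 8 group means (2 residual degrees of freedom), where a lone array is assumed to vary like the untreated duplicates. The fit was tested on simulated data with independent noise. Of 100 genes given a log2 difference of 1, it called 57 for the D3 mean, 26 for the interaction and 10 at 50 h. Many differences of that size would therefore not be called.

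The arrays were taken by label, but the question and the gene lists were chosen with earlier results of these data known. Genes named were the 15 largest rises and 15 largest falls among called genes, the 5 smallest interaction p in each direction, the 5 largest and 5 smallest differences between 50 and 8 h, up to 4 members per list with the smallest p, single list members for their role, and CYP24A1, VDR, RXRA, CDKN1A and ERBB2. Same-numbered untreated arrays of the siRNAs correlated at r = 0.216 over genes after subtraction of group means, with 2 pairs only, so the number was treated as a name. Promoter sequences are RefSeq's (GRCh38.p14). They were matched by symbol for 9763 of the 12022 genes, with the first entry of each symbol. Alternatives covered scaling, offset, filter, probe-set rule, intensity trend, the design, the replicate block, the ACTB 3′/5′ ratio and each array left out.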

Additional observations from a re-analysis of the deposited data

Results flagged for a closer look

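For 7 of the genes that the naming rule allowed, all D3 arrays lay on one side of both untreated arrays with p53 siRNA and on the opposite side with LacZ siRNA; 188 of 12022 genes (1.56%) did so. The response in p53i cells minus that in LacZi cells, on the log2(signal + 16) scale, was 2.26 for the cytokine gene IL17C, 1.28 for the kinase gene MAP3K12, 0.74 for the helicase gene DHX36, 0.70 for HACD3 and 0.61 for the receptor coactivator gene NCOA1. It was -0.69 for YWHAZ, which encodes a 14-3-3 protein, and -0.78 for GTPBP3. IL17C read 42.3 and 29.1 untreated and 80.1, 102 and 146 with D3 in p53i cells, and 112 and 98.6 untreated and 25.3, 35.7 and 87.6 with D3 in LacZi cells. YWHAZ read 4831 on both untreated arrays and 4083, 3759 and 3311 with D3 in p53i cells, and 3688 and 4033 untreated and 4983, 5042 and 4311 in LacZi cells. That is 1 probe set of several: in p53i cells the next brightest read 3945 and 3726 untreated and 4574, 4021 and 4278 with D3, and the third differed by -0.01. The difference was tested with limma for each gene, and none passed: the smallest adjusted p among all 188 was 0.749. The other 4 genes named for the interaction had a smaller response in p53i cells for MAMDC4 (-2.17), NUTM1 (-1.87) and GPANK1 (-0.99), and a larger one for TPR (0.79).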

How the results depend on the processing

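The count of genes called for the mean of the 3 D3 times, 65 as reported, was 257 with median centring, 15 without the filter, 2 without the intensity trend, 5 with p53i arrays only, 3 with 8 group means, 262 with the ACTB 3′/5′ ratio as a covariate and 9 without the 2 arrays of highest ratio (p53i untreated 2 and 20 h; added after seeing the data). With quantile normalization it was 82, without offset 60, with an offset of 64 66, with the upper 25% of probe sets 63, with the filter over p53i arrays 65, with probe-set means 53 and with every probe set 85. Treating the replicate number as a block gave 493 calls for the mean and, by time, 39 (8 h), 127 (20 h) and 809 (50 h); the labels state no pairing, and with 2 pairs a number may be only a name. The 3 calls at 50 h became 5 with median centring and 1 without the filter, with the filter over p53i arrays, with probe-set means and without the trend. Leaving out single arrays, counts ran from 3 to 303 for the mean, 1 to 23 (8 h), 1 to 25 (20 h), 1 to 76 (50 h) and 0 to 62 for the interaction. The cause was not tested. Of 3047 values of named genes under the alternatives, 2502 stayed on their side of the threshold, 441 lost a call and 104 gained one. With a call in either fit, 0 changed sign, while sign changes without a call were counted among the 2502. The 50 h medians of the G2/M list ran from -0.94 to -0.55 and of the interferon-stimulated list from 0.29 to 0.56 over the scalings, offsets and single untreated arrays tried. Signals near the background limit the dim genes.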
